A study of Rattus norvegicus with 17 samples.

Results

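The enzymes that oxidise ethanol to acetaldehyde, acetaldehyde to acetate, and that activate acetate were followed across the hippocampus of adolescent rats whose mothers drank ethanol or not. The 10 genes were taken by symbol as the enzymes of this pathway, and all 10 were found among the 34322 genes of the count table. They are Adh1, Adh5, Cat and Cyp2e1 for the first oxidation, Aldh2, Aldh1a1, Aldh1b1, Aldh3a2 and Aldh7a1 for aldehydes, and Acss2 for acetate. RNA was sequenced from 17 Long-Evans rats aged 36 to 38 days. In the ethanol group (ET, 5 rats) the dam received a liquid diet with 6.7% ethanol from gestational day 0 to 20, reached by mixing with control diet over the first days. In the pair-fed group (PF, 6 rats) the dam received the control liquid diet in the amount taken by an ethanol dam, and in the ad libitum group (AD, 6 rats) the dam ate chow freely. All dams had chow from day 20, and the offspring were given no ethanol themselves. By label the ET group held 3 males and 2 females, and the PF and AD groups 3 males and 3 females each. The right hippocampus was used for 1 ET, 2 PF and 1 AD rat, and the left for the others. Each diet group was 1 litter, so diet and litter cannot be told apart, and p-values measure the spread between littermates.

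Ethanol is oxidised by 3 kinds of enzyme. Cytosolic alcohol dehydrogenases of class I, such as Adh1, carry most of it in the liver, while in brain tissue catalase in peroxisomes and the microsomal P450 Cyp2e1 are regarded as the main routes. Acetaldehyde is then oxidised mainly by mitochondrial Aldh2, and the acetate formed is joined to coenzyme A by Acss2 in the cytosol and nucleus. The other dehydrogenases also have physiological substrates, among them formaldehyde bound to glutathione for Adh5, retinal for Aldh1a1, fatty aldehydes for Aldh3a2 and the semialdehyde of lysine breakdown for Aldh7a1.

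Between 10853947 and 17498392 fragments were counted per library, as the mean of 3 technical runs. The 7 markers of hippocampal neurons listed for the tissue were above 3 normalized counts in every diet group. Following the final analysis of the study, 3 libraries (ET replicate 2, PF animal 11f6 and AD replicate 4) were left out of the tests, leaving 4 ET, 5 PF and 5 AD samples; their summed normalized count of 8 choroid plexus markers was 96547 to 123701, against 94.5 to 15969 in the other 14. In AD replicates 1 and 2 the Y-linked genes went against the labelled sex. Normalized counts are fragments per gene scaled by the TMM method to a common library size. No exon lengths were at hand, so levels were compared between samples and never between genes.

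Stretches of 250 bases before the annotated start (RefSeq, assembly GRCr8) were found for 8 of the 10 genes. Those of 4 genes are shown because they belong to the gene that differed by diet (Aldh7a1), a gene with a narrow spread (Adh5), the gene with the widest spread (Aldh1a1) and a gene near the limit of detection (Cyp2e1). Capitals mark the motif GGGCGG, the motif TATAAA and the motif CCAAT, each searched on both strands, and the windows read 5′ to 3′ on the strand of the gene.
Aldh7a1 (chr18:52240294-52240543, minus strand): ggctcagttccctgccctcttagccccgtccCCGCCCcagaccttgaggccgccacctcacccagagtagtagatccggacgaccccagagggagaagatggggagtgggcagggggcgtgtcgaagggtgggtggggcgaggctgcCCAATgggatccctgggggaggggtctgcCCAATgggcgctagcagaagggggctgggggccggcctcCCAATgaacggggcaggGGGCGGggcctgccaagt
Adh5 (chr2:229648307-229648556, plus strand): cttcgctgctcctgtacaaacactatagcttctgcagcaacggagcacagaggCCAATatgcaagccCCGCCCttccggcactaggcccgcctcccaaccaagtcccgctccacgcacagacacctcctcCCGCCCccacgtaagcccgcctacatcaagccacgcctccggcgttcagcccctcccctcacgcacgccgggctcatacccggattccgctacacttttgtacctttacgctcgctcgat
Aldh1a1 (chr1:227537370-227537619, plus strand): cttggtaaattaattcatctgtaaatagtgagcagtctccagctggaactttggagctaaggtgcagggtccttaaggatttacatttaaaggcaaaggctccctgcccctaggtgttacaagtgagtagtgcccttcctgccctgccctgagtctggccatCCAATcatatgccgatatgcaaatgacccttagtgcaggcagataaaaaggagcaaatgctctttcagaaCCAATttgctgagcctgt
Cyp2e1 (chr1:205269717-205269966, plus strand): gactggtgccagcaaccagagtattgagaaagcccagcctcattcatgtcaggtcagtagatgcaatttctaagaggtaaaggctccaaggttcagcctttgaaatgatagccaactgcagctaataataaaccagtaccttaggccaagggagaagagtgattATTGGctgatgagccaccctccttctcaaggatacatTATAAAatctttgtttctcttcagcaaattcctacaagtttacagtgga
The window of Adh5 holds 21 CpG dinucleotides and that of Aldh7a1 holds 12, against a median of 5 over 33469 promoters of the table, while Aldh1a1 has 1 and Cyp2e1 has 0. TATAAA was found in 1 of the 8 windows, that of Cyp2e1, 49 to 44 bases before the start, and in 12.9% of all windows. GGGCGG was in 4 (Adh5, Aldh3a2, Aldh7a1 and Acss2), with 30.5% of all windows holding it. CCAAT was in all 8 windows and in 34% of all. The window of Aldh7a1 holds CCAAT 3 times, at 103 to 99, 74 to 70 and 35 to 31 bases before the start. These are matches of letters and no occupancy was measured.

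Of the 10 genes, 8 had enough counts to be tested between diets, and 0 of them passed the threshold of the study (adjusted p below 0.01 and absolute log2 fold change above 1.5) in any comparison. Over all genes tested, 2.17% passed it between ET and PF, 0.0127% between ET and AD and 2.05% between PF and AD. Without the minimum fold change and at an adjusted p below 0.05, 1 of the 8 differed, Aldh7a1, which was lower in ET than in PF and higher in PF than in AD. The share of all genes at that adjusted p was 4.13% between ET and PF (3.59% lower in ET), 0.0127% between ET and AD and 5.17% between PF and AD (4.32% higher and 0.846% lower in PF), so the count of 1 gene says nothing of the enzymes as a group. Between ET and PF the median log2 fold change of the 8 genes was 0.08 (all genes 0.005), between ET and AD 0.009 (all genes 0.003), and between PF and AD -0.046 (all genes -0.003). The median absolute log2 fold changes were 0.10, 0.052 and 0.117, beside 0.086, 0.058 and 0.088 over all genes tested. ET and AD are each compared with the same PF samples, so these comparisons are not independent of each other.

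**Figure D1:**
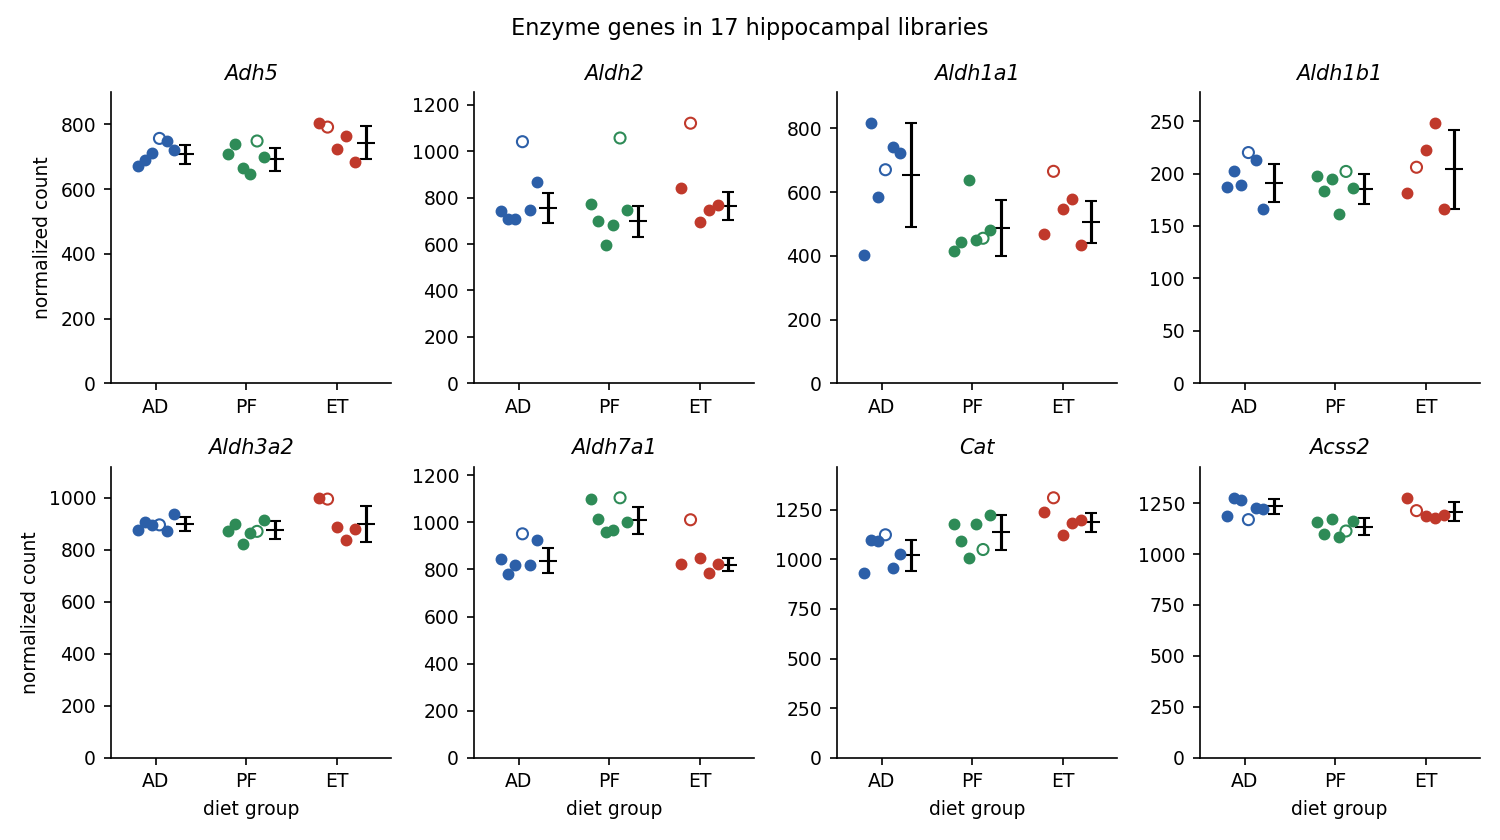
Normalized counts (vertical axes, each from 0) of the 8 tested enzyme genes in the 17 libraries by diet group, as filled points for the 14 samples tested, open points for the 3 libraries left out, and a bar for the mean ± SD of the tested samples. Aldh7a1 lies at 957 or above in all PF samples and at 923 or below in the ET and AD samples tested, and Aldh2 is highest in the open points.

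In the deposited counts, which are means of 3 technical runs, Adh1 and Cyp2e1 were too weakly counted to be tested. The deposited count of Adh1 was between 2.33 and 9.33 fragments per library, with means of 4.1 ± 0.753 normalized counts in ET (SD, n = 4), 5.74 ± 2.47 in PF (n = 5) and 5.21 ± 2.61 in AD (n = 5). Cyp2e1 was counted at 0.333 to 4.33 fragments, with means of 1.28 ± 0.453, 2.75 ± 1.24 and 1.92 ± 1.21, each below the floor of 3 counts. In fits with no filter on low counts the log2 fold change of ET over PF was -0.548 (SE 0.378, adjusted p = 0.74 in edgeR) for Adh1 and -1.012 (SE 0.484, adjusted p = 0.7) for Cyp2e1. A difference in these genes was not detectable in the averaged counts. With the technical runs summed, 9 enzymes were tested between ET and PF and 9 between ET and AD. Of these only Aldh7a1, between ET and PF, was at an adjusted p below 0.05 (edgeR). Other genes of the pathway were also barely counted, with Adh4, Adh6, Adh7 and Hao1 at no more than 2 fragments in any library and Adh6a and Cyp1a2 at 0 in all.

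Catalase (Cat) breaks down hydrogen peroxide in peroxisomes and can use it to oxidise ethanol. It had 1238, 1122, 1184 and 1199 normalized counts in ET replicates 1, 3, 4 and 5. The AD values were 928, 1096, 1089, 956 and 1025 in replicates 1, 2, 3, 5 and 6, so each ET sample lay above each AD sample, as for 0.718% of the genes tested between these groups (0.47% had all ET samples lower). PF lay across both, at 1179, 1094, 1004 and 1224 in replicates 1, 2, 3 and 6 and 1176 in animal 11f5. The log2 fold change of ET over AD was 0.218 (SE 0.063), a ratio of 1.16 with an interval of 1.06 to 1.28. The unadjusted p of 0.0058, from the edgeR fit of all genes, became an adjusted p of 1.0 there, and 2.74% of all genes were at an unadjusted p below 0.05. PF over AD was 0.156 (SE 0.066, adjusted p = 0.26 in edgeR). The ratio of ET to PF was 1.05, with an interval of 0.947 to 1.16. Erythrocytes are rich in catalase, and the summed normalized count of 4 of the 5 blood genes listed, those found in the table, was 6131 to 8285 in ET, 5899 to 8645 in AD and 2708 to 5887 in PF over the 14 samples. Its part in the values of Cat was not tested. In GRCr8 a pseudogene overlaps Cat.

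Adh5, a class III dehydrogenase that handles formaldehyde and has little activity on ethanol at low concentration, ranged from 684 to 804 in ET, 648 to 741 in PF and 672 to 748 in AD, and these ranges overlapped. Its ratio of ET to PF was 1.08, with an interval of 0.974 to 1.19 (adjusted p = 0.64 in edgeR). The ratio of ET to AD was 1.05 (interval 0.959 to 1.15, adjusted p = 1.0) and that of PF to AD 0.978 (interval 0.909 to 1.05, adjusted p = 0.81). Its means were 744 ± 51.8 in ET (SD, n = 4), 692 ± 36.6 in PF (n = 5) and 708 ± 28.9 in AD (n = 5).

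Aldh2, the mitochondrial enzyme with the highest affinity for acetaldehyde, passed no test between diets in the 14 samples. It ranged from 696 to 840 in ET, from 598 to 772 in PF and from 707 to 868 in AD, and these ranges overlapped. The ratio was 1.09 for ET over PF (interval 0.963 to 1.24, adjusted p = 0.67 in edgeR), 1.01 for ET over AD (0.898 to 1.14, adjusted p = 1.0) and 0.927 for PF over AD (0.825 to 1.04, adjusted p = 0.54). The libraries left out stood apart instead. Aldh2 was at 1121 in ET replicate 2, 1058 in PF animal 11f6 and 1042 in AD replicate 4, above all 14 others, and 1.47, 1.51 and 1.38 times the mean of the other samples of its diet. These libraries were set aside for their position in the principal components of all genes, so the values are a description and no test was made. How many other genes were highest in the same libraries was not counted, so the gap is not shown to be particular to Aldh2. Aldh7a1 was 1.23, 1.10 and 1.14 times its diet mean in the same libraries, while Acss2 was at 1.00, 0.981 and 0.946 times and Adh5 at 1.06, 1.08 and 1.07 times.

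**Figure D2:**
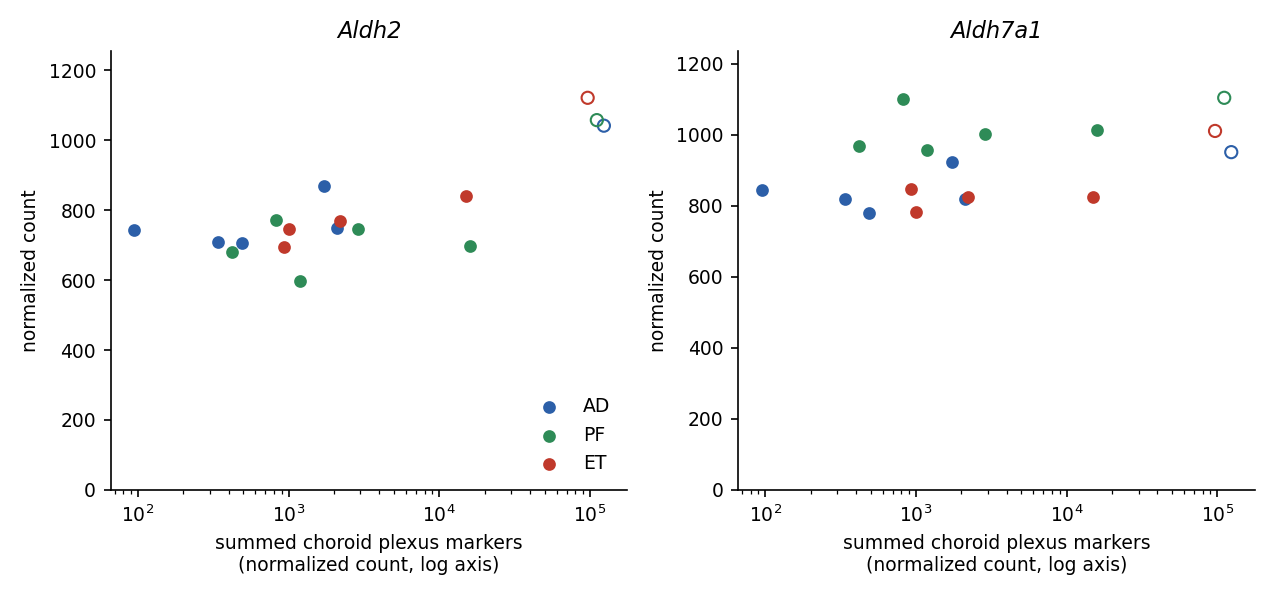
Normalized counts of Aldh2 (left) and Aldh7a1 (right) against the summed normalized count of 8 choroid plexus markers (log axis) in each of the 17 libraries, coloured by diet, with open points for the 3 libraries left out. The open points lie at 96547 or more on the horizontal axis, and for Aldh2 they are the highest of all, at 1042 to 1121.

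Aldh1a1, which turns retinal into retinoic acid, had the widest spread of the tested enzymes, with a coefficient of variation of 24.3% over the 14 samples; the median of 1743 genes of similar level was 8.07%. In AD it was at 402 in replicate 1 and at 816, 583, 740 and 722 in replicates 2, 3, 5 and 6. In ET it was at 467, 546, 577 and 435 in replicates 1, 3, 4 and 5. The PF values were 414, 443, 637 and 482 in replicates 1, 2, 3 and 6 and 451 in animal 11f5. AD replicate 1, a library with a doubtful sex label, was thus the lowest of all, and the ranges of ET and AD overlapped. The log2 fold change of PF over AD was -0.429 (SE 0.176, adjusted p = 0.24 in edgeR), a ratio of 0.743 with an interval of 0.568 to 0.971. Leaving out 1 sample at a time gave -0.559 to -0.333 over 10 fits (adjusted p of 0.034 to 0.45 in edgeR). The value of -0.559 was without AD replicate 1, the only one of these fits at an adjusted p below 0.05. ET over AD was -0.368 (SE 0.184, adjusted p = 1.0), and its interval of 0.584 to 1.03 in ratio holds both no difference and a large one.

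The ranges of Aldh3a2 and Aldh1b1 overlapped between all diets. Aldh3a2, which clears fatty aldehydes, ranged from 837 to 999 in ET, 821 to 912 in PF and 872 to 937 in AD, and its ratio of ET to PF was 1.03 (interval 0.939 to 1.14, adjusted p = 0.9 in edgeR). Against AD the ratio was 1.00 for ET (interval 0.917 to 1.10) and 0.974 for PF (interval 0.915 to 1.04). A long non-coding RNA gene overlaps Aldh3a2 in GRCr8, and the strand setting of the counting is not given in the sources used here. Aldh1b1, a mitochondrial enzyme close to Aldh2, was the least counted of the tested enzymes, at 161 to 248 normalized counts, with means of 204 ± 37.5 in ET (SD, n = 4), 185 ± 14.5 in PF (n = 5) and 191 ± 17.7 in AD (n = 5). Its ratio of ET to PF was 1.11, with an interval of 0.921 to 1.34 (adjusted p = 0.79 in edgeR), and the ratios to AD were 1.07 for ET (interval 0.884 to 1.28) and 0.963 for PF (interval 0.855 to 1.08).

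Aldh7a1, also called antiquitin, oxidises the semialdehyde formed in lysine breakdown as well as other aldehydes. Its normalized count was 825, 847, 783 and 824 in ET replicates 1, 3, 4 and 5. In PF it was 1099, 1013, 957 and 1002 in replicates 1, 2, 3 and 6 and 967 in animal 11f5. In AD it was 845, 780, 820, 820 and 923 in replicates 1, 2, 3, 5 and 6. Every PF sample thus lay above every ET and AD sample tested, as was the case for 2.23% of the genes tested in all 3 diet comparisons. Taken singly, 4.98% of genes had all ET samples below all PF samples and 5.03% all PF samples above all AD samples. The means were 820 ± 26.7 in ET (SD, n = 4), 1008 ± 56.3 in PF (n = 5) and 837 ± 52.9 in AD (n = 5). The log2 fold change of ET over PF was -0.295 (SE 0.055, adjusted p = 0.0094 in edgeR), a ratio of 0.815 with a 95% interval of 0.749 to 0.887. PF over AD gave 0.268 (SE 0.055, adjusted p = 0.011 in edgeR), a ratio of 1.20 with an interval of 1.11 to 1.31. Between ET and AD the ratio was 0.979, with an interval of 0.896 to 1.07 and an adjusted p of 1.0. The interaction of sex and diet was -0.005 on the log2 scale, with an interval of -0.288 to 0.279 (adjusted p = 1.0 in edgeR).

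The call for Aldh7a1 did not hold under every choice of samples. With all 17 samples the log2 fold change of ET over PF was -0.251 (adjusted p = 0.058 in edgeR) and that of PF over AD 0.253 (adjusted p = 0.0097). ET replicate 2, one of the libraries rich in choroid plexus markers, had 1011 normalized counts of Aldh7a1, within the PF range. With left hippocampi alone, and so with fewer samples, the values were -0.253 (adjusted p = 0.06 in edgeR) and 0.219 (adjusted p = 0.1). The ET samples tested were all left hippocampi, while PF replicates 1 and 6 and AD replicate 3 were right ones. Side and diet thus cannot be fully told apart. Without AD replicates 1 and 2, a choice made after the data were seen, PF over AD was 0.240 (adjusted p = 0.11). Of the marker lists summed, only those of blood and oligodendrocytes had PF and ET ranges that did not overlap in the samples tested. Both were lower in PF, where Aldh7a1 was higher, and the oligodendrocyte ranges of PF and AD overlapped. The summed blood genes given for Cat were lower in each of the 5 PF samples tested than in each ET and AD sample tested, and the summed normalized count of 5 oligodendrocyte genes was 186014 to 254947 in PF, 255456 to 329318 in ET and 217630 to 311197 in AD over the 14 samples. Their part in the difference was not tested. In bulk tissue a change in the number of cells of a type and a change in RNA per cell cannot be told apart.

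**Figure D3:**
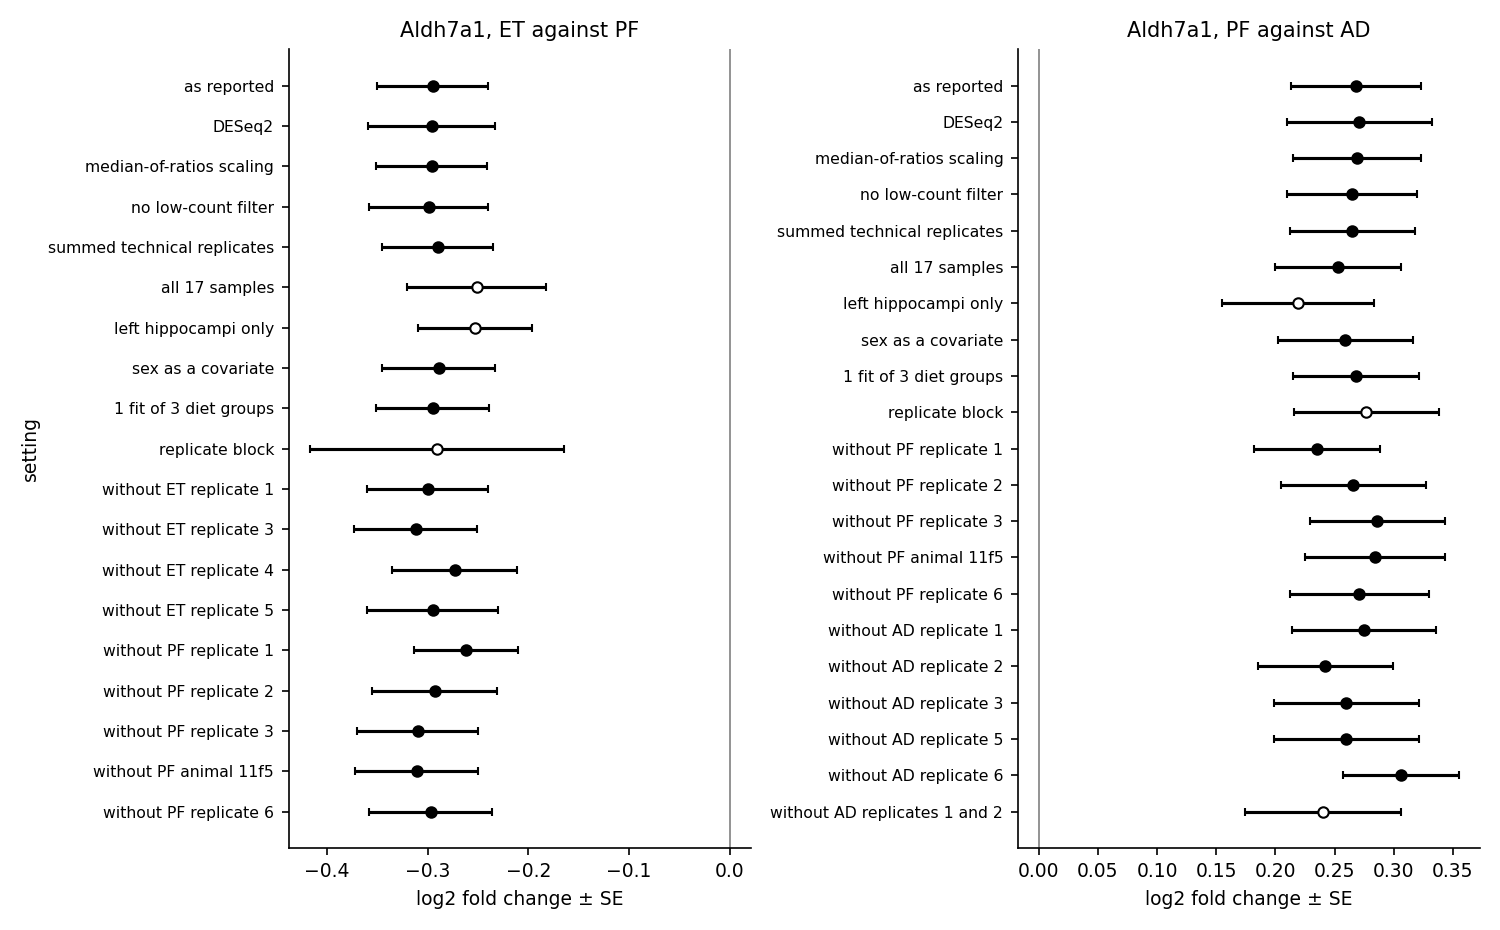
Log2 fold change of Aldh7a1 (horizontal axis, ± SE) under each setting (vertical axis), for ET against PF on the left and PF against AD on the right, with filled points at an adjusted p below 0.05. All 18 alternatives on the left lie between -0.312 and -0.251 and all 20 on the right between 0.219 and 0.306, and 3 on each side are open.

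Aldh7a1 lies on chromosome 18, and in the GRCr8 annotation no other gene overlaps it. Its neighbours with a coding sequence are Gramd2b, which codes for a membrane contact protein, and Phax, which codes for an adaptor of small nuclear RNA export. Between ET and PF the log2 fold change was 0.069 (SE 0.062) for Gramd2b and -0.013 (SE 0.049) for Phax, with adjusted p of 0.82 and 0.98 in edgeR, and the intervals of -0.069 to 0.207 and -0.122 to 0.096 do not reach the value of Aldh7a1. Over the 14 samples the gene whose log2 level was most like that of Aldh7a1, among 11202 genes with a mean of at least 100 normalized counts, was Ism2 (Pearson r of 0.957), a description over samples that share their diet groups. Among the other tested enzymes the most alike was Cat, at 0.144. For the other enzymes the genes with the highest value were Kxd1 for Aldh3a2 (0.943), Pttg1ip for Aldh2 (0.934), Slc15a4 for Acss2 (0.903), Tspan33 for Aldh1b1 (0.896), Rpn2 for Adh5 (0.856), Rpl17 for Cat (0.829) and Ubxn4 for Aldh1a1 (0.767). Each is the largest among 11202 genes over only 14 samples. How large such a maximum would be for unrelated genes was not tested. Between enzymes the highest value was 0.684, for Aldh2 and Aldh3a2. Only the highest values were listed, so inverse relations are not shown. In the PF samples tested, Aldh7a1 was higher and Acss2 lower than in every ET and AD sample tested.

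Acss2, which makes acetyl coenzyme A from acetate, had, with Aldh3a2, the narrowest spread of the tested enzymes, with coefficients of variation of 4.96% and 4.83% over the 14 samples. It was at 1275, 1189, 1178 and 1191 in the 4 ET samples and at 1186, 1276, 1267, 1224 and 1223 in the 5 AD samples. The PF samples tested were lower than all of these, at 1156, 1096, 1173 and 1163 in replicates 1, 2, 3 and 6 and 1083 in animal 11f5. Such a gap was seen for 1.58% of the genes tested between PF and AD, and for 1.8% in the same direction between ET and PF. Of the genes tested in all 3 diet comparisons, 0.487% had every PF sample below every ET and AD sample. The gap between PF and AD did not hold in the libraries left out. There AD replicate 4 was at 1169, within the PF range, with PF animal 11f6 at 1113 and ET replicate 2 at 1213. The summed blood genes given for Cat were likewise lower in each PF sample tested than in each ET and AD sample tested, and the summed oligodendrocyte genes given for Aldh7a1 were lower in each PF sample than in each ET sample tested. Their part in the values of Acss2 was not tested. PF over AD had a log2 fold change of -0.124 (SE 0.039), a ratio of 0.918 with an interval of 0.865 to 0.974, which did not pass the adjustment (unadjusted p = 0.0089, adjusted p = 0.12 in edgeR). For ET over PF the value was 0.094 (SE 0.05, adjusted p = 0.54). The difference of ET from AD had an interval of -9.02% to 5.01%.

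**Figure D4:**
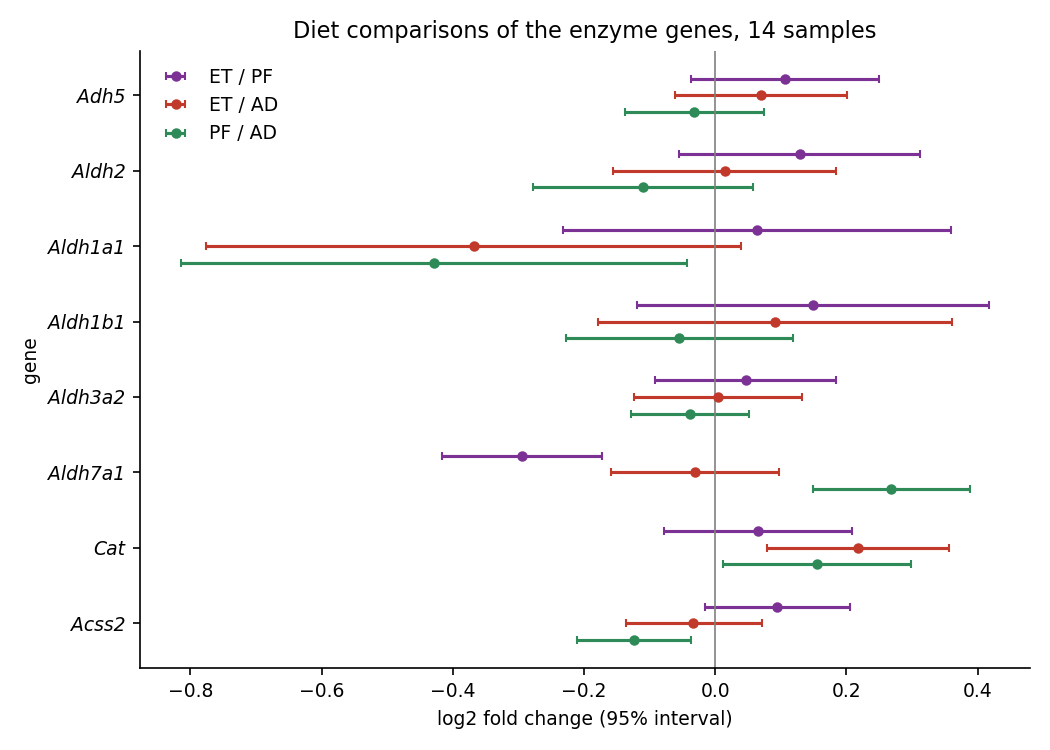
Log2 fold change (horizontal axis) with its 95% interval for each tested enzyme gene (vertical axis) in the 14 samples, for ET over PF, ET over AD and PF over AD. The intervals are not adjusted for the number of genes. Those of Aldh7a1 exclude 0 in both comparisons with PF, at -0.295 and 0.268. Those of Cat for ET over AD and for PF over AD, and of Acss2 and Aldh1a1 for PF over AD, exclude 0 too. The intervals of Aldh1a1 are the widest.

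No difference by sex was detectable. In the 9 ET and PF samples, with diet in the model, 0 of the 8 enzymes differed between males and females at an adjusted p below 0.05 (edgeR), 0 at an unadjusted p below 0.05, where 0.0425% of all genes passed the former (0.0303% higher and 0.0121% lower in males) and 1.9% the latter. At the threshold of the study 0 of the 8 passed, beside 0.0303% of all genes. The log2 fold changes of males over females lay between -0.076 for Adh5 and 0.075 for Cat, with intervals of -0.223 to 0.071 and -0.072 to 0.222. For the interaction of sex and diet 0 of the 8 genes passed (0% of all genes at an adjusted p below 0.05). At an unadjusted p below 0.05 there were 0 as well (1.4% of all genes). The values ran from -0.181 for Aldh3a2 (interval -0.473 to 0.11) to 0.185 for Aldh1b1 (interval -0.421 to 0.792). Such intervals hold both no interaction and sizeable ones, so its absence is not shown.

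The pathway around the enzymes was described with 8 lists of 61 other genes, of which 49 were tested. At an adjusted p below 0.05 in edgeR, 0 of the 49 differed in any diet comparison. At an unadjusted p below 0.05, 4 were higher and 0 lower in ET than in PF, 0 higher and 1 lower in ET than in AD, and 3 higher and 3 lower in PF than in AD, where 11.9%, 2.74% and 16.4% of all genes were at such a p. The smallest adjusted p was 0.11, for Slc16a1, the transporter that carries lactate and acetate across membranes, with 1503 ± 121 normalized counts in ET (SD, n = 4), 1251 ± 106 in PF (n = 5) and 1383 ± 38.7 in AD (n = 5) and a log2 fold change of ET over PF of 0.267. Slc16a3, another transporter of this kind, had -0.278 (adjusted p = 0.66 in edgeR).

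Among the other aldehyde dehydrogenases, 12 of 15 were tested, 6 with a positive and 6 with a negative log2 fold change of ET over PF. Aldh6a1, of valine breakdown, had -0.086 (adjusted p = 0.49 in edgeR), and Aldh5a1, which removes the semialdehyde made from GABA, had -0.122 (adjusted p = 0.56). Of the alcohol dehydrogenases and reductases, Akr1a1 had 0.045 and Adhfe1 -0.011. Cyp3a9, a P450 of the microsomal list, stood at 85.2 ± 15.3 in ET and 66.5 ± 4.46 in PF (SD, n = 4 and 5), a log2 fold change of 0.358 (adjusted p = 0.24 in edgeR), and Cyb5r3, which passes electrons to cytochrome b5, had 0.041. Genes of peroxisomal import and peroxide supply had a median of 0.011 between ET and PF, with Dao at -0.365 and Xdh at -0.260. The shuttles that return cytosolic NADH had a median of 0.032, with Slc25a13 at 0.217 and Gpd2 at -0.118. Aass, which starts the lysine breakdown in which Aldh7a1 acts, had -0.110 between ET and PF (adjusted p = 0.83 in edgeR), and Sgpl1, which releases a fatty aldehyde handled by Aldh3a2, had -0.051. The phospholipases D that form phosphatidylethanol from ethanol had 0.246 (Pld1, adjusted p = 0.19 in edgeR) and -0.148 (Pld2, adjusted p = 0.51).

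**Figure D5:**
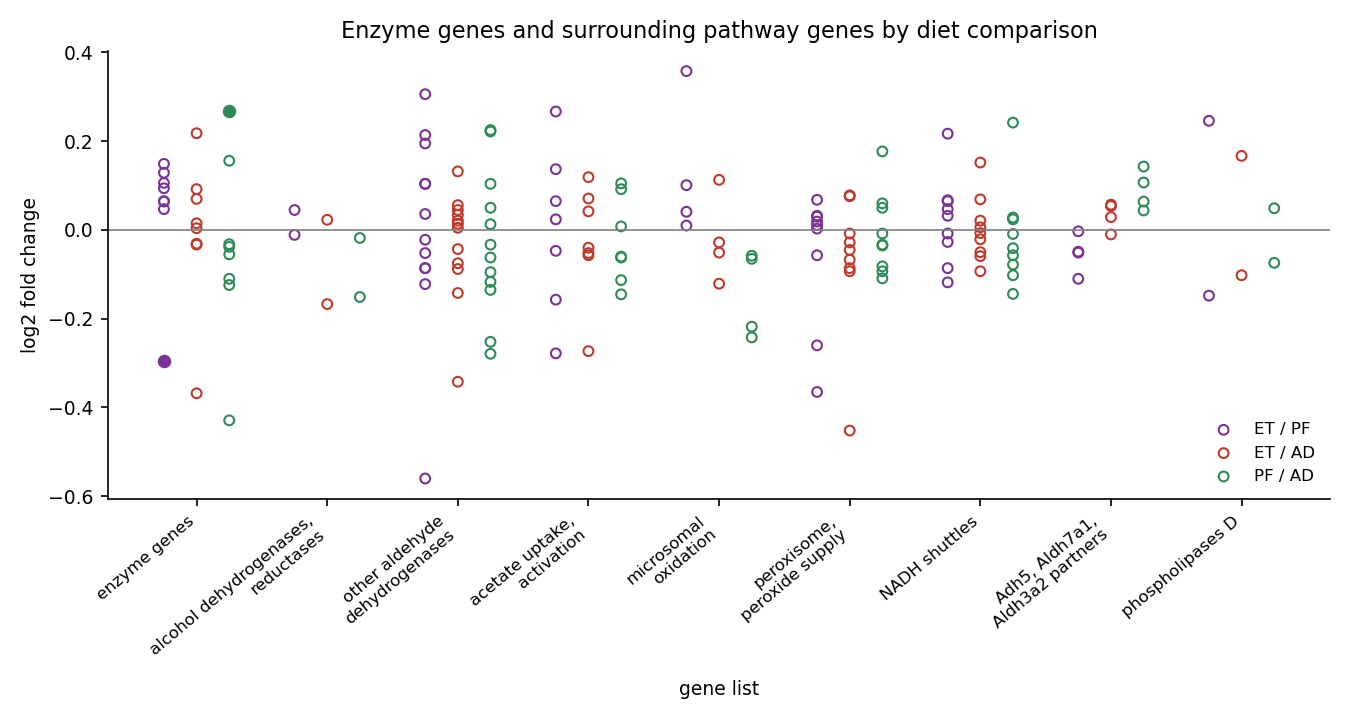
Log2 fold change (vertical axis) of each tested gene of the enzyme set and of the 8 surrounding lists (horizontal axis) in the 3 diet comparisons of the 14 samples, with filled points at an adjusted p below 0.05. The filled points are those of Aldh7a1, at -0.295 for ET over PF and 0.268 for PF over AD.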

How the data were processed

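The authors deposited 1 table of estimated counts, in which the fragments of a gene are the mean of 3 technical runs of a sample, with no scaling. They trimmed reads with fastp, mapped them with Bowtie2 2.4.2 to mRatBN7.2 and counted exon fragments with featureCounts 2.0.1 at a minimum mapping quality of 10, letting a read count toward more than 1 feature. Columns were tied to samples by the animal names, sex and side, and PF animals 11f5 and 11f6 carry no replicate number. No 2 samples of a diet agreed within sampling noise (smallest chi-square per gene 3.06 over 40 pairs).

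Averages were rounded, filtered with filterByExpr, scaled by TMM and tested by quasi-likelihood (edgeR 4.0.16, R 4.3.3) on the groups compared, two-sided, with Benjamini-Hochberg adjustment over all genes tested. Intervals use the SE, the absolute log2 fold change over the square root of F, and the t distribution. The step was tested on simulated data, with no changes or with changes larger than those seen in the enzymes. It therefore says nothing of how well differences as small as these are found. Alternatives included DESeq2 1.42.0, other scaling, filters, samples and covariates. All 10 enzymes are named, and from each pathway list those at an adjusted p below 0.05 or, with none, the 2 with the smallest p between ET and PF. The enzymes and lists were chosen with earlier results of these data known. The floor of 3 counts covers counting error only.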

Additional observations from a re-analysis of the deposited data

Results flagged for a closer look

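Of 24 groups (8 tested enzymes in 3 diets, all 17 libraries), 2 held a sample whose gap to its nearest neighbour was large for the range of the group by Dixon's criterion, which chance passes in about 1 of 20 groups. Aldh7a1 was at 1011 normalized counts in ET replicate 2, a library rich in choroid plexus markers and taken from a right hippocampus, and at 783 to 847 in the other ET samples. Aldh1a1 was at 637 in PF replicate 3, a left hippocampus of a female, and at 414 to 482 in the other PF samples.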

How the results depend on the processing

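At the threshold of the study the count of enzymes called was 0 under each alternative test, scaling, filter, choice of samples and covariate tried. It became 1 between ET and PF and 1 between PF and AD (Aldh7a1 in both) with an adjusted p below 0.05 and no minimum fold change, where all genes called numbered 664 and 825 in place of 349 and 327. For Aldh7a1, 15 of 18 alternatives kept an adjusted p below 0.05 between ET and PF (range 0.00011 to 0.54) and 17 of 20 between PF and AD (0.00035 to 0.11). It was lost with all 17 samples (-0.251, ET over PF), with left hippocampi only (-0.253, and 0.219 for PF over AD), without AD replicates 1 and 2 (0.240) and with the replicate block (-0.291, adjusted p = 0.54, and 0.277, adjusted p = 0.06). The block fit of ET and PF left out animal 11f5, which has no replicate number. Only replicate numbers held by both groups (2 pairs) inform its diet value. Its SE for Aldh7a1 was 0.126, against 0.055 in the reported fit. The cause of these losses was not tested. Samples of the same replicate number are different animals of different litters, and nothing in the labels ties them. Same-numbered deviations correlated at 0.007 and 0.616 between ET and PF (2 pairs, mean 0.311, other pairs -0.036), too few to show or exclude a pairing, and on average at -0.045 between ET and AD (3 pairs) and -0.033 between PF and AD (4 pairs). With the block, all genes called were 197 (3 higher, 194 lower) between ET and PF and 0 between ET and AD, where the reported count was 2. With no filter on low counts, 493 were called between PF and AD. Leaving out 1 sample gave 325 to 358, 2 to 3 and 324 to 358 genes called, 0 enzymes called each time, and log2 fold changes of Aldh7a1 of -0.312 to -0.262 and 0.235 to 0.306. Between males and females, 0 genes were called with AD samples added in place of 5. The added samples include AD replicates 1 and 2, whose Y-linked genes went against the labelled sex. The value of Aldh7a1 for males over females turned from -0.062 to 0.018 with all ET and PF samples. Of 399 alternative values of the other tested enzymes between diets, 1 reached an adjusted p below 0.05 (Aldh1a1 without AD replicate 1), and 18 turned in sign, each for a reported value within 1 SE of 0. Depth limits Adh1 and Cyp2e1 in the averaged counts, where 3 counts are the floor.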
